A study of Mus musculus with 29 samples.

Results

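The 10 genes described here mark astrocytes as they mature: Aqp4, Slc1a2 and Hepacam at the cell membrane, Gfap and S100b inside the cell, Aldh1l1 and Aldoc in metabolism, and Sparc, Sparcl1 and Bcan outside the cell. They were taken by name from a list, without a threshold on any measured value. All 10 were among the 38355 genes of the untreated count table and the 48709 genes of the treated one, and all 10 passed the filter on low counts in both. Hepacam, Sparcl1, Bcan, Aqp4 and Sparc also stand on the study's own list of astroglial genes, which was drawn up from these samples, so the direction of these 5 is not independent evidence. RNA-seq libraries of whole C57BL/6J pallium or cortex at E17.5 formed 5 groups. The untreated experiment held 4 controls and 3 libraries labelled double conditional knockout (dcKO), the treated experiment held 4 libraries each of wild type (WT) with vehicle, dcKO with vehicle and dcKO with a Wnt inhibitor, and H3K27me3 ChIP-seq held 4 control and 4 dcKO libraries of the pallium.

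The dcKO embryos carried floxed alleles of both Smarcc1 (BAF155) and Smarcc2 (BAF170), core subunits of the BAF chromatin remodelling complex, with the hGFAP-Cre transgene. This Cre acts in pallial progenitors and their progeny, first medially and later in the dorsal and lateral pallium, so vessels, meninges and microglia of the same tissue keep both genes. Per the study's methods, the controls of the untreated and ChIP-seq experiments were littermates heterozygous for both floxed alleles that carried the same Cre, whereas the vehicle controls are labelled wild type. The inhibitor, ICG-001, which blocks transcription by β-catenin with CBP, or its vehicle was injected daily into the pregnant dams, so the whole embryo was exposed. The deposited genotype label reads dcKO for all untreated and ChIP-seq samples, and there control and dcKO were told apart by the letter in the sample title. The labels do not say whether libraries of a group came from separate animals, so the p-values measure only the spread between these libraries.

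Astrocytes of the cerebral cortex descend from radial glia, the stem cells that line the ventricle, and begin to appear at the end of neurogenesis. Radial glia already use some genes that astrocytes use, and others, such as the water channel gene Aqp4, become abundant only as astrocytes mature after birth. The gliogenic programme rests on nuclear factor I proteins, SOX9 and signalling through STAT3, while H3K27me3, a histone mark laid down by Polycomb, covers genes held silent.

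In 3 of the 11 libraries labelled dcKO, both deleted genes were at the control level. Smarcc1 ranged from 247 to 269 CPM (reads scaled to a common library size) in the untreated controls, and it measured 128 and 135 in 2 of the untreated dcKO libraries but 245 in replicate 2. The dcKO vehicle libraries gave 136, 242, 133 and 138 CPM for replicates 1 to 4, against 245 to 299 CPM in WT vehicle, and the inhibitor libraries gave 214, 252, 140 and 173 CPM. Smarcc2 in the 3 libraries was likewise near the control level, with 670 CPM in the untreated replicate 2, 692 in the vehicle replicate 2 and 695 in the inhibitor replicate 2. It ran from 664 to 834 CPM in WT vehicle and from 425 to 439 CPM in the low vehicle libraries. In the remaining inhibitor libraries it ran from 416 to 644 CPM, the highest of them close to the WT range. The results for the 10 genes are therefore given over all libraries and again without these 3, a setting chosen after the data were examined. The genotype of the ChIP-seq libraries cannot be checked in this way.

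The untreated and the vehicle libraries were not independent of each other in their values. Deviations from the group mean correlated at 0.20 to 0.55 between same-numbered control and WT vehicle libraries (4 pairs) and at 0.52 to 0.80 between same-numbered untreated dcKO and dcKO vehicle libraries (3 pairs). Pairs with different numbers gave -0.35 to 0.14 and -0.70 to 0.50. Summed choroid plexus markers were 8.19, 19.3, 7.33 and 133 CPM in the 4 controls and 7.93, 16.5, 6.78 and 130.5 CPM in the 4 WT vehicle libraries. The labels link none of these libraries, and the vehicle comparison is not used here as an independent repeat of the untreated one.

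**Figure D1:**
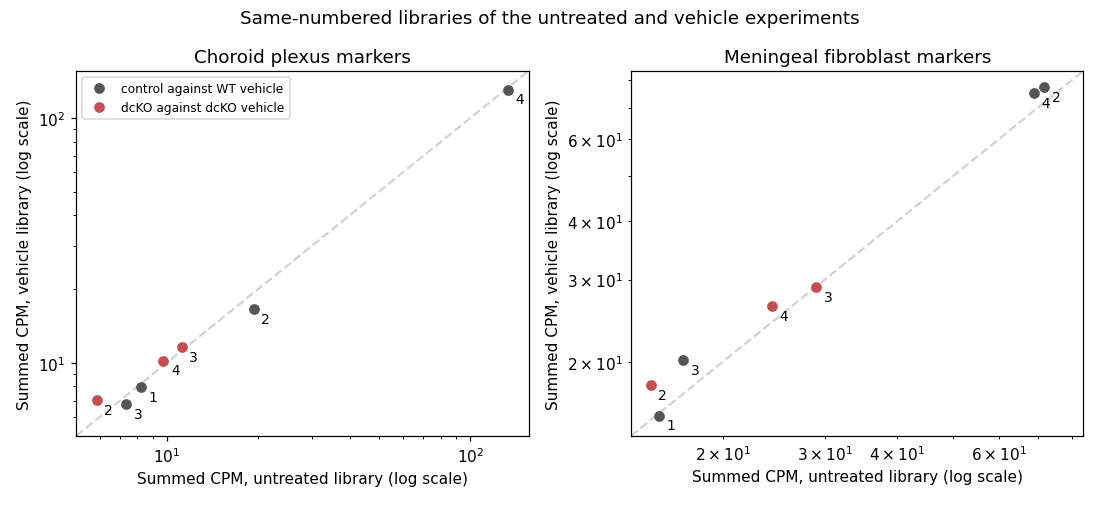
Summed CPM of choroid plexus and meningeal fibroblast markers (log axes) in untreated libraries against the vehicle library of the same genotype label and number. The 7 points lie close to the line of equal values, from 5.88 to 133 CPM for the choroid plexus sum of the untreated libraries.

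Total counts per library ran from 11946658 to 28391046. Markers of neurons summed to 6757 to 9985 CPM over the 19 libraries and the 10 astrocyte genes to 571 to 935 CPM, and in whole tissue fewer cells of a type and less RNA per cell cannot be told apart. Endothelial and pericyte markers, which belong to cells that also use Sparc and Sparcl1, summed to 306 to 359 CPM in the controls, 273 to 306 in the untreated dcKO group, 309 to 340 in WT vehicle, 261 to 288 in dcKO vehicle and 282 to 301 with inhibitor. No endothelial marker was at 0 in any library, and the part of vessels in the Sparc and Sparcl1 results was not tested.

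Promoter windows, the 250 bases before the RefSeq start on GRCm38.p6, were available for 8 of the 10 genes (9 windows). Of these, 4 are printed to show CpG dinucleotides or motif letters. The Bcan (chr3:88000357-88000606, minus strand) and Aldh1l1 (chr6:90550543-90550792, plus strand) windows overlapped H3K27me3 peaks, and capitals mark their CpG dinucleotides. Aldoc has 2 windows, of which the second (chr11:78323948-78324197, plus strand) holds the letters TTCNNNGAA of a STAT site in capitals. In the Hepacam window (chr9:37367356-37367605, plus strand) capitals mark the letters TTGGC, bound by nuclear factor I proteins, read on either strand.
Bcan: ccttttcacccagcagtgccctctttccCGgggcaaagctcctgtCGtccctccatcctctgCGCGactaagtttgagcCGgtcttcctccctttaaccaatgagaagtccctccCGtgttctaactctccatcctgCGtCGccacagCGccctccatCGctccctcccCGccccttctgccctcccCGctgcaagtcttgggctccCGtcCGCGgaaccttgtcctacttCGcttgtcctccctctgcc
Aldh1l1: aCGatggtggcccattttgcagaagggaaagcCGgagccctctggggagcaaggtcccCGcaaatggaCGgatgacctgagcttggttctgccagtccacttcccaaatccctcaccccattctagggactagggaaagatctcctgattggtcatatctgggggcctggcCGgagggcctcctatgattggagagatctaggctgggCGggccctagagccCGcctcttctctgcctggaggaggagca
Aldoc: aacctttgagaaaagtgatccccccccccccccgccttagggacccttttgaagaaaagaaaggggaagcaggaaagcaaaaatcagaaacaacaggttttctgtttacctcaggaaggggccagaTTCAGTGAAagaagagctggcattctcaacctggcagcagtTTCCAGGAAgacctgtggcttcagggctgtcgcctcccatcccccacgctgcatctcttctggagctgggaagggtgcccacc
Hepacam: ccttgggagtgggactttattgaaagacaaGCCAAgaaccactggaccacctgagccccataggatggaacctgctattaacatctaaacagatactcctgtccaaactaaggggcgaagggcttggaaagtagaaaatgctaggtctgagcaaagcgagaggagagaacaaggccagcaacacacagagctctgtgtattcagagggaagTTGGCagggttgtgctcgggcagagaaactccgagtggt

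The Bcan window held 16 CpG and the Aldh1l1 window 7, against a median of 6 over 32851 promoter windows. The Aldoc window carried the STAT letters at 124 and 83 bases before the start, and 7.02% of all windows carry them. The nuclear factor I letters stood 220 and 39 bases before the Hepacam start, and they were also found in the windows of S100b, Slc1a2 and, at 146 bases, in the first Aldoc window, which made 4 of 9 windows against 41.5% of all promoters. Neither the TCF/LEF letters TTCAAAG (4.46% of promoters) nor the SOX letters ACAATG (10.7%) occurred in any of the 9 windows, searched on both strands. Only these exact letters were searched, so the windows may hold other forms of either site. The Slc1a2 window, for example, reads ATCAAAG where TTCAAAG was sought. These matches describe the sequence and say nothing of binding.

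Per kilobase of exon the 10 genes spanned a wide range of levels. In WT vehicle, Sparcl1, a secreted protein that promotes synapse formation, stood highest at 91.5 ± 7.62 RPKM (SD, n = 4). Sparc, its antagonist in that role, followed at 42.1 ± 2.93 RPKM, Aldoc, the brain form of aldolase, at 36.0 ± 4.34 RPKM and Bcan, the proteoglycan brevican, at 19.5 ± 6.63 RPKM. The glutamate transporter gene Slc1a2 reached 12.7 ± 1.76 RPKM, Aldh1l1, an enzyme of folate metabolism, 10.3 ± 2.11 RPKM and Hepacam, an adhesion protein of astrocyte junctions, 4.75 ± 1.29 RPKM. The intermediate filament gene Gfap at 2.74 ± 0.883 RPKM, Aqp4 at 1.15 ± 0.317 RPKM and the calcium-binding protein gene S100b at 0.395 ± 0.120 RPKM were the lowest. Neighbours in this order overlapped between libraries for Sparc and Aldoc, Bcan and Slc1a2, Slc1a2 and Aldh1l1, Hepacam and Gfap, and Gfap and Aqp4. S100b rested on 2 to 19 reads per library and Aqp4 on 51 to 285, the lowest counts of the 10 genes. Low counts limit the precision of their fold changes, as the spread between libraries does for all 10.

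**Figure D2:**
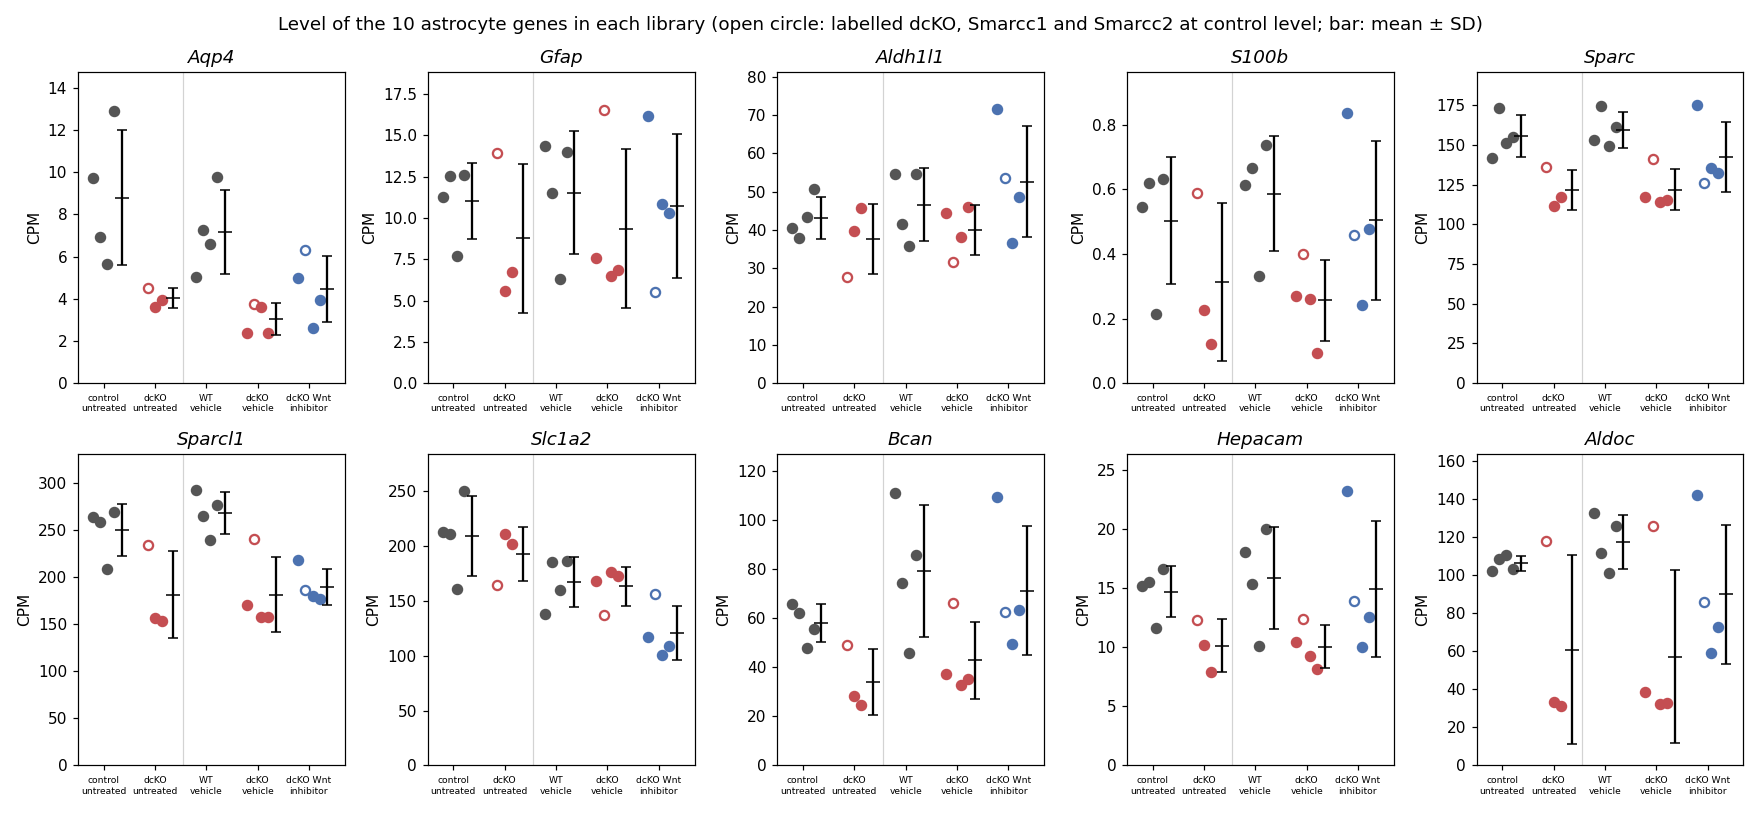
CPM of the 10 genes in each of the 19 RNA-seq libraries by group, with the bar at the mean and the error bar at 1 SD. Open circles are the 3 libraries labelled dcKO with control levels of Smarcc1 and Smarcc2; for Aldoc they sit at 118, 126 and 85.6 CPM while the other dcKO libraries without inhibitor lie between 31.3 and 38.5.

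The first comparison asked how loss of both BAF subunits changed these genes in the untreated pallium. All 10 had negative fold changes, with a median log2 fold change of -0.51 against 0.00 over all 15770 genes tested. None of the 10 passed an adjusted p under 0.05 over all libraries, a limit that 0% of genes passed as lower and 0.00634% as higher (edgeR quasi-likelihood test, Benjamini-Hochberg adjustment). At an unadjusted p under 0.01, 3 of the 10 were lower (Aqp4, Sparc and Hepacam), against 2.8% of all genes. Without the library labelled dcKO replicate 2, 7 of the 10 fell, namely Aldoc, Bcan, Sparcl1, Sparc, Hepacam, Gfap and Aqp4, and 5 of these (all but Aldoc and Gfap) are on the study's own list named above. In that setting 6.88% of all genes were lower and 5.57% higher, and the median of the 10 was -0.77 (all genes tested 0.00). Meningeal fibroblast markers moved beside them: 7 of 7 had negative fold changes, with a median of -0.94 over all libraries and -0.73 without replicate 2, and their sum ran from 15.5 to 71.7 CPM in the controls and from 15.03 to 28.97 CPM in dcKO, with at most 1 of the 7 at 0 in a library. None of the 7 passed, and their part in the members' values was not tested.

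Aqp4, the water channel of astrocyte end-feet, measured 9.71, 6.91, 5.66 and 12.9 CPM in the controls and 4.53, 3.60 and 3.96 CPM in the dcKO libraries. Every dcKO library lay below every control, the one with control levels of Smarcc1 and Smarcc2 included. The log2 fold change was -1.13 ± 0.28 (SE), with an unadjusted p of 0.00278 and an adjusted p of 0.143, and without replicate 2 it was -1.21 ± 0.32 with an adjusted p of 0.0377. Hepacam gave 15.2, 15.5, 11.6 and 16.6 CPM in the controls and 12.3, 10.2 and 7.92 CPM in the dcKO libraries. The groups overlapped only through the library labelled dcKO replicate 2, and the log2 fold change was -0.55 with all libraries (adjusted p 0.181) and -0.70 without it (adjusted p 0.0199).

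Slc1a2, which codes for the main glutamate transporter of astrocytes (GLT-1), stood apart from the other membrane genes. It measured 213, 211, 161 and 249.9 CPM in the controls and 164.5, 211 and 201 CPM in the dcKO libraries. The groups overlapped fully, and the log2 fold change was -0.11 (adjusted p 0.748) with all libraries and -0.02 without replicate 2, with a 95% interval of -0.30 to 0.26. Aldh1l1, with 27.8, 39.7 and 45.7 CPM in the dcKO libraries against 38.0 to 50.6 CPM in the controls, gave -0.18 (adjusted p 0.627) with all libraries and -0.02 without replicate 2, with an interval of -0.24 to 0.21. A change of up to these bounds, or somewhat beyond them, remains possible for both genes.

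Aldoc, a glycolytic enzyme gene, had the largest fall of the genes that passed without replicate 2. Its level was 102, 108, 111 and 103.5 CPM in the controls, and 33.3 and 31.3 CPM in replicates 3 and 4 of the dcKO group but 118 CPM in replicate 2. The 2 low libraries were far below every control, while the library labelled dcKO replicate 2 was above all of them. The log2 fold change was -0.84 ± 0.47 (adjusted p 0.444) with all libraries and -1.72 ± 0.07 (adjusted p 4.85e-07) without that library, a 3.29-fold lower level. Gfap had the same order, with 5.60 and 6.75 CPM in the low libraries, 13.9 CPM in replicate 2 and 7.68 to 12.6 CPM in the controls, and its log2 fold change went from -0.37 (adjusted p 0.613) to -0.83 (adjusted p 0.0261). S100b measured 0.588, 0.227 and 0.121 CPM in the dcKO libraries against 0.213 to 0.633 CPM in the controls, with log2 fold changes of -0.89 and -1.46 that did not pass in either setting (adjusted p 0.473 and 0.134).

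Among the matrix genes, Sparc measured 142, 173.5, 151.5 and 155 CPM in the controls and 136, 112 and 117 CPM in the dcKO libraries, again with no overlap. Its log2 fold change was -0.36 (adjusted p 0.143) with all libraries and -0.44 (adjusted p 0.00519) without replicate 2. Sparcl1 fell from 209 to 269 CPM in the controls to 156 and 153 CPM in replicates 3 and 4, with 234.5 CPM in replicate 2, and its log2 fold change of -0.47 (adjusted p 0.222) became -0.69 (adjusted p 0.00153). Bcan, with 66.0, 62.2, 48.0 and 55.8 CPM in the controls, measured 49.3, 28.1 and 24.7 CPM in the dcKO libraries. Only replicate 2 reached the range of the controls, and the log2 fold change of -0.79 (adjusted p 0.194) became -1.13 (adjusted p 0.000495).

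The second comparison asked the same of the vehicle-treated cortex. All 10 genes again had negative fold changes over all libraries (median log2 fold change -0.62, all 16372 genes tested 0.00), and none passed the adjusted limit, which 0% of genes passed as lower and 0.00611% as higher. At an unadjusted p under 0.01, 3 were lower (Aqp4, Sparcl1 and Sparc), against 1.29% of all genes. Without the library labelled dcKO vehicle replicate 2 and the inhibitor replicate 2 that shares the fit, Aldoc, Sparcl1, Aqp4 and Sparc fell, 4 of the 10, where 2.36% of all genes were lower and 1.57% higher. The median of the 10 was then -0.76, against -0.01 over all genes. The 7 meningeal markers again had negative fold changes, with a median of -0.95 over all libraries and -0.77 without those at control level, none passed, and their part was not tested.

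In the vehicle libraries Aldoc measured 132, 111, 101 and 126 CPM in WT and 38.5, 126, 32.2 and 32.7 CPM in dcKO replicates 1 to 4. The replicate 2 value lay within the WT range and the other dcKO values far below it. The log2 fold change was -1.04 ± 0.40 (adjusted p 0.413), and -1.77 ± 0.26 (adjusted p 0.00558) without the libraries at control level, a 3.42-fold lower level. Aqp4 gave 5.01, 7.27, 6.62 and 9.76 CPM in WT against 2.39, 3.74, 3.62 and 2.38 CPM in dcKO, so that here too every dcKO library, replicate 2 included, lay below every WT library. Its log2 fold change was -1.24 ± 0.28 (adjusted p 0.221), and -1.36 (adjusted p 0.0207) without those libraries.

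Sparcl1 measured 293, 265, 239.7 and 277 CPM in WT vehicle and 171, 240.4, 158 and 158 CPM in dcKO vehicle, with a log2 fold change of -0.56 (adjusted p 0.231) or -0.73 (adjusted p 0.00552). Sparc, at 153, 174, 149 and 161 CPM in WT, was 117, 141, 114 and 115 CPM in dcKO, and its log2 fold change of -0.39 (adjusted p 0.292) became -0.47 (adjusted p 0.0377). Bcan at 111, 74.5, 45.8 and 85.8 CPM in WT and 37.1, 66.2, 32.8 and 35.2 CPM in dcKO had a log2 fold change of -0.89 (adjusted p 0.356). Without the libraries at control level it was -1.18 with an adjusted p of 0.0526, just outside the limit, and the adjusted p was 0.0442 where only dcKO vehicle replicate 2 was left out. For Sparcl1 and Bcan the only dcKO library within the WT range was replicate 2, and for Sparc no dcKO library reached it. Hepacam, Gfap and S100b had log2 fold changes of -0.67, -0.31 and -1.22 over all libraries (adjusted p 0.412, 0.916 and 0.375) and of -0.78, -0.74 and -1.51 without those at control level (adjusted p 0.192, 0.167 and 0.133). Aldh1l1 gave -0.22 (adjusted p 0.852) and -0.13 (adjusted p 0.906). Slc1a2, at 138 to 186 CPM in WT and 137 to 176 CPM in dcKO vehicle, gave -0.03 (adjusted p 0.988) over all libraries and 0.04 without those at control level, with a 95% interval of -0.18 to 0.26.

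A test of the difference between the untreated and the vehicle genotype effects, fitted over both experiments, called 0 of 15999 genes by edgeR (0% lower, 0% higher). DESeq2 called 0 as well. By edgeR 87 genes stood at an unadjusted p under 0.05, fewer than chance alone would put there. Same-numbered libraries of the 2 experiments share deviations, so the lack of calls does not show that the effects agree. For Aldoc the difference was 0.21 ± 0.65 (SE) over all libraries and 0.05 with an interval of -0.23 to 0.32 without the libraries at control level. For the 10 genes the adjusted p was 1 in each of these settings and with same-numbered libraries of the 2 experiments as a block, where the Aldoc difference was 0.10 ± 0.13.

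**Figure D3:**
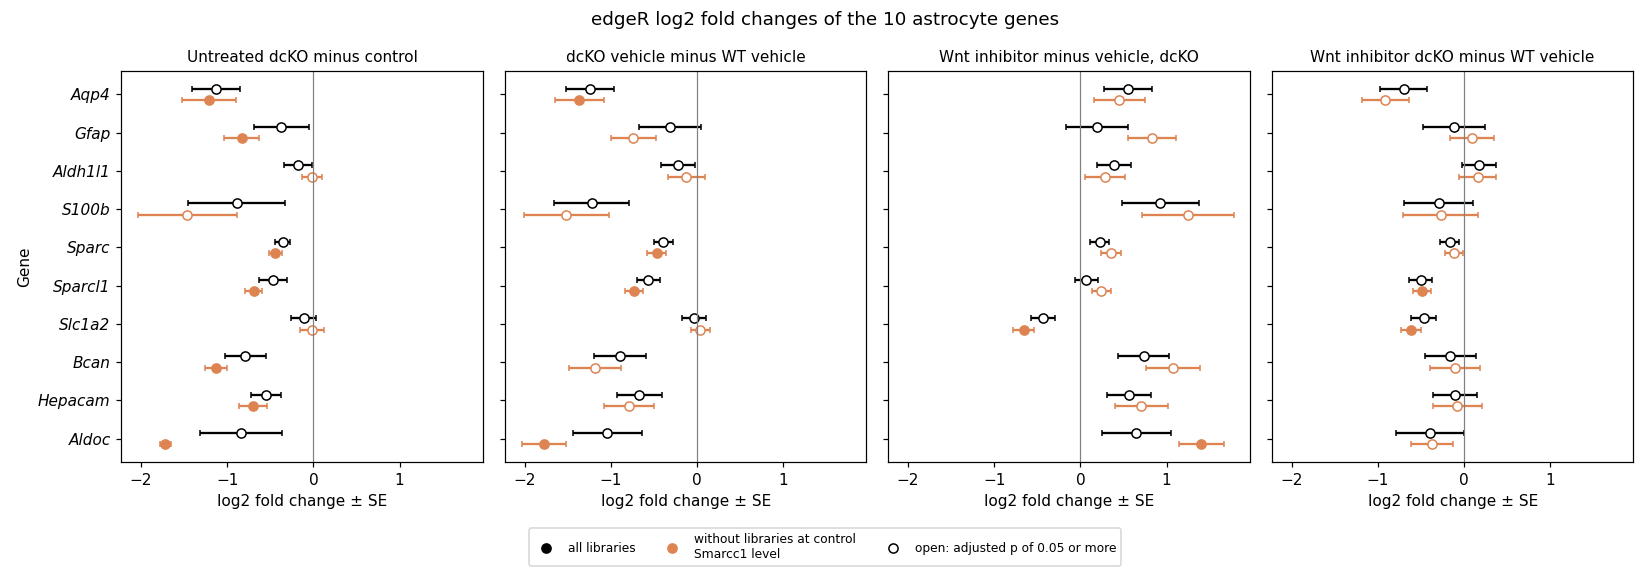
Log2 fold change of each of the 10 genes in the 4 RNA comparisons, with the SE as the error bar, over all libraries and without the 3 libraries labelled dcKO at the control level of Smarcc1 and Smarcc2. Aldoc moves from -0.84 to -1.72 in the untreated comparison and Slc1a2 stays between -0.11 and -0.02.

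The third comparison asked what the Wnt inhibitor did to these genes in dcKO cortex. The dcKO vehicle libraries also serve in the comparison with WT above, so the directions of the 2 comparisons are not independent. Over all libraries 9 of the 10 had positive fold changes (median log2 fold change 0.47, all genes tested 0.01), and none passed the adjusted limit, which 0.0122% of genes passed as lower and 0.0428% as higher. At an unadjusted p under 0.01, 1 member was lower (Slc1a2), against 2.2% of all genes. Without the libraries at control level 1 member rose (Aldoc) and 1 fell (Slc1a2), where 2.37% of all genes were higher and 3.72% lower, and the median was 0.58 (all genes 0.02).

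Aldoc measured 142, 85.6, 59.0 and 72.8 CPM in inhibitor replicates 1 to 4, against 38.5, 126, 32.2 and 32.7 CPM in dcKO vehicle. Every inhibitor library stood above the 3 low vehicle libraries and 3 of the 4 below the WT vehicle range. The log2 fold change was 0.65 ± 0.40 (adjusted p 0.445), and 1.40 ± 0.27 (adjusted p 0.0203) without the libraries at control level, a 2.65-fold higher level. Leaving out only dcKO vehicle replicate 2 gave 1.38 (adjusted p 0.0241), and leaving out only inhibitor replicate 1 gave 0.34 (adjusted p 0.842), so single libraries decide the value. Smarcc1 in the same inhibitor libraries was 214, 252, 140 and 173 CPM, against 133 to 138 CPM in the 3 low vehicle libraries, and the difference of Smarcc1 between the groups without the libraries at control level was 0.37 (adjusted p 0.123). Together Smarcc1 and Smarcc2 summed to 859, 947, 555 and 759 CPM over inhibitor replicates 1 to 4. These sums were 963 to 1079 CPM in WT vehicle and 558 to 575 CPM in the 3 low vehicle libraries. The order of Aldoc over inhibitor replicates 1, 3 and 4 was also that of Smarcc1. Replicate 2 broke that order, with the most Smarcc1 (252 CPM) but less Aldoc (85.6 CPM) than replicate 1 (142 CPM). Whether the Aldoc levels moved with the remaining Smarcc1 and Smarcc2 or with the inhibitor was not tested.

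**Figure D4:**
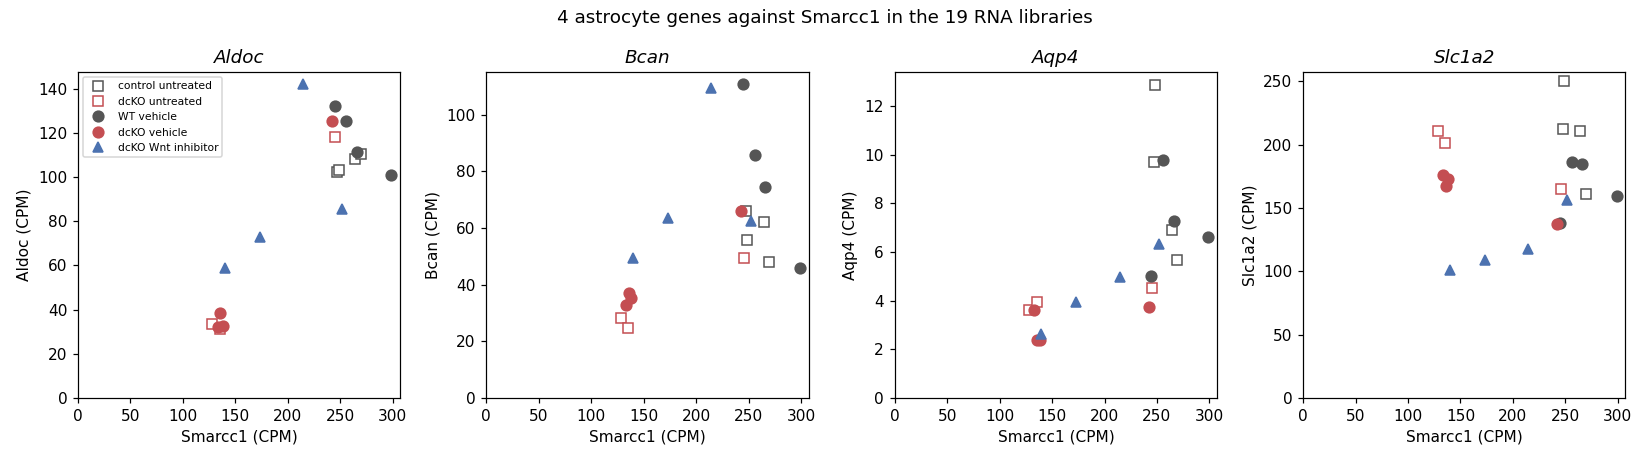
CPM of Aldoc, Bcan, Aqp4 and Slc1a2 against CPM of Smarcc1 in the 19 RNA-seq libraries, 1 point per library, coloured by group. Aldoc is at 31.3 to 38.5 CPM in the 5 libraries with Smarcc1 between 128 and 138 CPM and no inhibitor. In the libraries labelled dcKO with Smarcc1 above 240, Aqp4 is at 4.53 CPM (untreated), 3.74 CPM (vehicle) and 6.31 CPM (inhibitor).

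Slc1a2 moved the other way. It measured 117, 156, 101 and 109 CPM with inhibitor and 167.5, 137, 176 and 172 CPM with vehicle. The 2 libraries labelled replicate 2 crossed, and the other 3 inhibitor libraries lay below all vehicle libraries. The log2 fold change was -0.44 ± 0.14 (adjusted p 0.212), -0.66 ± 0.12 (adjusted p 0.0197) without the libraries at control level, a 1.58-fold lower level, and -0.58 (adjusted p 0.0381) without inhibitor replicate 2 alone. Bcan, at 109.6, 62.6, 49.3 and 63.4 CPM with inhibitor, had a log2 fold change of 0.73 (adjusted p 0.272) over all libraries and 1.08 (adjusted p 0.0614) without those at control level. Aqp4, at 4.96, 6.31, 2.62 and 3.95 CPM, had 0.55 (adjusted p 0.358) and 0.45 (adjusted p 0.367) in the same order, the second with a 95% interval of -0.14 to 1.04. Sparcl1, at 218, 186, 179.8 and 176 CPM, had 0.07 (adjusted p 0.847) and 0.24 (adjusted p 0.19), and Aldh1l1, at 71.6, 53.4, 36.7 and 48.5 CPM, had 0.39 (adjusted p 0.351) and 0.29 (adjusted p 0.462).

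Hepacam measured 23.2, 13.9, 10.01 and 12.6 CPM with inhibitor, with a log2 fold change against vehicle of 0.56 (adjusted p 0.308) over all libraries and 0.71 (adjusted p 0.172) without those at control level. Gfap measured 16.2, 5.51, 10.8 and 10.3 CPM, with 0.19 (adjusted p 0.827) and 0.83 (adjusted p 0.0893). Sparc, at 175, 126, 136 and 132 CPM, had 0.22 (adjusted p 0.357) and 0.35 (adjusted p 0.0887), and S100b, at 0.837, 0.459, 0.243 and 0.478 CPM, had 0.92 (adjusted p 0.332) and 1.24 (adjusted p 0.17). Replicate 1 of the inhibitor group was the highest for 8 of the 10 genes, Aqp4 and Slc1a2 being the exceptions, and without it the median over the 10 was 0.24. The same library had the highest sum of choroid plexus markers. That sum was 849.6, 163, 484 and 12.3 CPM over the 4 inhibitor libraries against 7.04 to 11.5 CPM in dcKO vehicle, none of its 6 markers was at 0 in any library, and its part in these results was not tested. Meningeal fibroblast markers, which summed to 37.1, 21.5, 24.4 and 66.6 CPM with inhibitor and 17.9 to 28.9 CPM with vehicle, had positive fold changes in 7 of 7 cases, with a median of 0.60 over all libraries and 0.97 without those at control level. None passed, and their part was not tested either.

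Against WT vehicle, the dcKO cortices with inhibitor had a median log2 fold change over the 10 genes of -0.23, and none passed the adjusted limit, which 0.0366% of genes passed as lower and 0.0611% as higher. At an unadjusted p under 0.01, 2 were lower (Sparcl1 and Slc1a2), against 3.71% of all genes. Without inhibitor replicate 2 and dcKO vehicle replicate 2, both fell past the adjusted limit, 2 of the 10, with 6.3% of all genes lower and 3.92% higher. The log2 fold change of Sparcl1 went from -0.50 (adjusted p 0.0982) to -0.49 (adjusted p 0.0167) and that of Slc1a2 from -0.47 (adjusted p 0.127) to -0.62 (adjusted p 0.0104). Every inhibitor library had less Sparcl1 than every WT vehicle library, while for Slc1a2 replicate 2 with 156 CPM lay inside the WT range. Over all libraries Aldoc had -0.39 (adjusted p 0.606) and Bcan -0.16 (adjusted p 0.797). Without those at control level Aldoc (-0.37, adjusted p 0.343, 95% interval -0.85 to 0.11) and Bcan (-0.10, adjusted p 0.844, interval -0.67 to 0.46) did not pass either, which does not show that they matched the WT level.

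Across the 12 treated libraries, each gene was set against the mean of the other 9 on the log2 scale. Hepacam (r 0.93), S100b (0.91) and Bcan (0.91) followed that mean most closely, Aldoc, Sparc and Sparcl1 gave 0.88, 0.87 and 0.83, and Aqp4 0.74. Gfap gave 0.60, Aldh1l1 0.43 and Slc1a2 -0.10. These correlations share depth, dissection and group structure over 12 libraries and are a description only. Among the genes outside the list most like the mean of the 10 were Faah (r 0.95), which degrades endocannabinoids, Emp2 (0.95), Plcd1 (0.95) and Tep1 (0.94), out of 11676 candidates of which 56 exceeded 0.9.

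The other astrocyte genes moved in both directions. For this and the following lists, only up to 4 genes with the smallest p are named. The names therefore do not show the balance of rises and falls, which the counts give. Of 21 other astrocyte genes, all tested without the library labelled dcKO replicate 2, 4 rose and 5 fell in the untreated dcKO libraries (median log2 fold change 0.05). Those that rose were Plpp3 (0.98), Mfge8 (0.92), Cst3 (0.86) and Chrdl1 (1.63), each with an adjusted p of 0.000144 or less. With all libraries, 20 were tested, none passed and the median was -0.01. In the vehicle experiment without the libraries at control level 4 rose and 3 fell (none passed with all libraries), among them Slc4a4 (-0.88, adjusted p 0.00506), a bicarbonate transporter, which fell. With inhibitor against vehicle none passed in either setting, with Chrdl1, an inhibitor of BMP signalling, at -0.98 (adjusted p 0.223) with all libraries and -1.11 (adjusted p 0.0525) without those at control level.

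Of 12 radial glia genes, 5 rose and 3 fell in the untreated dcKO libraries without replicate 2, and most of those that rose are not named here. The intermediate filament gene Nes fell by 1.20 on the log2 scale, Hopx fell by 0.94 and the matrix gene Tnc fell by 0.70, while the Notch target Hes5 rose by 0.71. In the vehicle experiment 0 rose and 3 fell (Tnc, Nes and Hopx), and with inhibitor against vehicle 4 rose and 0 fell, Hopx by 1.05, Nes by 0.92, Tnc by 0.46 and Fabp7 by 0.39. With inhibitor against WT vehicle only Fabp7 passed (0.58, adjusted p 0.00586). Over all libraries none of the 12 passed in these 4 comparisons.

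Of 15 gliogenic factors, 3 rose and 5 fell in the untreated dcKO libraries without replicate 2. Nfix (-0.54) and Nfia (-0.56), nuclear factor I genes, and the cytokine receptor gene Lifr (-0.58) fell, and Cntfr (0.63), the receptor of ciliary neurotrophic factor, rose. In the vehicle experiment without the libraries at control level only Nfix passed (-0.52, adjusted p 0.0267). Over all libraries 0 of the 15 rose and 0 fell in both experiments. With inhibitor against vehicle Sox8 was the only factor that passed, with a log2 fold change of 0.88 ± 0.12 and an adjusted p of 0.0263 over all libraries and 0.95 (adjusted p 0.00919) without the libraries at control level. Of 8 Wnt feedback targets, Axin2 rose (0.54, adjusted p 0.00607) and Rnf43 fell (-1.60, adjusted p 0.00684) in the untreated dcKO libraries without replicate 2 and none passed in the vehicle experiment. Over all libraries none of the 8 passed in either, with Axin2 at 0.41 (adjusted p 0.188) and Rnf43 at -0.65 (adjusted p 0.586) untreated. None passed with inhibitor against vehicle in either setting, and Axin2 had -0.35 (adjusted p 0.318) over all libraries.

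H3K27me3 was read from the deposited peaks over each gene and 2000 bp around its annotated start, as the highest fold enrichment over input in each library. The annotated start is the outer end of the gene and can differ from the RefSeq start of the promoter windows. A peak was present in at least 1 library at 7 of the 10 genes, against 50.4% of 21938 protein-coding genes, and in at least 2 libraries at 6 of the 10, against 34.5%. Around the annotated start alone, 2 of the 10 (Bcan and Slc1a2) had a peak in at least 2 libraries, against 23.1%. This count leaves out the peaks at the RefSeq start of Aldh1l1, which lies far inside the annotated gene. For Slc1a2 the RefSeq promoter window overlapped no peak in any library. No library had a peak at Aldoc, Sparcl1 or S100b, so that Aldoc had no called peak in control or dcKO libraries. Peaks at Aqp4 and Sparc were rare: Aqp4 had one only in dcKO replicate 4 (3.10-fold), and Sparc in control replicate 1 (4.55-fold) and dcKO replicate 4 (3.56-fold).

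Bcan had the broadest merged region of the 10 genes, 15901 bp at chr3:87988281-88004181 (mm10), which holds its start and nearly the whole gene. The full width was a single peak of dcKO replicate 4, and peaks of the other libraries there were 356 to 11173 bp wide. The fold enrichment at Bcan was 7.32, 4.38, 6.38 and 4.36 in the controls. It was 9.12, 5.26 and 9.13 in dcKO replicates 1, 3 and 4, with no peak in replicate 2. The groups overlapped, and the difference of log2 fold enrichment, with 1 standing for no peak, was -0.26 (two-sided exact permutation test, p = 0.943). Without dcKO replicate 2 it turned to 0.47 (exact permutation p = 0.171). The promoter window of Bcan printed above overlapped a peak in 4 control and 3 dcKO libraries, whereas 12.5% of all promoter windows overlapped a peak in at least 2 libraries. In control replicate 3 the peak (chr3:88000002-88000357) only touched the edge of that window. Gfap had an internal region at chr11:102890197-102894705 with 4.44, 4.18, 4.16 and 3.79 in the controls and 4.36, 4.90 and 5.90 in dcKO replicates 1, 3 and 4, and none in replicate 2 (difference -0.30, exact permutation p = 0.971). Here too the sign rested on replicate 2, and without it the difference was 0.28 (exact permutation p = 0.0571).

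Aldh1l1 had a peak in all 8 libraries but at different places. The region at chr6:90515777-90517397, inside the annotated gene, was found in control replicates 1 and 3 and dcKO replicates 1, 2 and 4. A short region at chr6:90521156-90521580 was found only in dcKO replicates 1 and 2 (4.29-fold and 4.81-fold). Its difference was 1.09 (limma, unadjusted p 0.157). These were the highest values of those 2 libraries at the gene and enter the group difference below. The region at chr6:90549425-90551805, which holds the RefSeq start and the window printed above, was found in control replicates 2 and 4 and dcKO replicates 3 and 4. The same libraries differed in the share of tags left after duplicate removal, which was 61.5% and 62.2% in control replicates 2 and 4, 66.5% and 32.8% in dcKO replicates 3 and 4, and 12.3% to 18.0% in the other 4. The difference between the groups was 0.16 (exact permutation p = 0.343). Slc1a2 had a peak at its annotated start, at chr2:102657830-102660175, in control replicates 1 and 2 (4.03-fold and 3.42-fold) and dcKO replicates 1 and 4 (7.09-fold and 4.30-fold), with a difference of 0.29 (p = 0.657, exact permutation test), and Hepacam in 1 library of each group, with a difference of -0.03.

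Bcan, Gfap, Aldh1l1 and Slc1a2 did not reach p under 0.05 by the exact permutation test of 4 against 4 libraries, whose smallest possible p is 0.0286. With a peak in only 1 or 2 libraries, Aqp4, Sparc and Hepacam could not have reached that limit, and no p is given for them. Across 22220 regions limma called 0% lower and 0% higher at an adjusted p under 0.05. It put 49 regions at an unadjusted p under 0.05, fewer than chance alone would put there. The lack of calls does not show that the regions were unchanged. Among the 4 libraries with over 30% of tags kept the difference was 0.66 at Bcan, 0.43 at Gfap, 1.05 at Hepacam, 0.92 at Sparc, 0.82 at Aqp4, 0.24 at Aldh1l1 and 0.16 at Slc1a2. Among the other 4, which include dcKO replicate 2, it was -1.18, -1.04, -1.10 and -1.09 at the first 4 of these genes, 0 at Aqp4, 0.08 at Aldh1l1 and 0.41 at Slc1a2. The sign thus turned between the classes at 4 of the 7 genes. Among the libraries over 30%, Hepacam, Sparc and Aqp4 had a peak only in dcKO replicate 4. That library held 46000 peaks, against 6674 to 13326 in the other libraries of its class. In the other class, Hepacam and Sparc had a peak only in control replicate 1, which held 28659 peaks against 9381 to 18408. With 2 libraries a group in each class, these within-class values have no test that could reach 0.05.

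**Figure D5:**
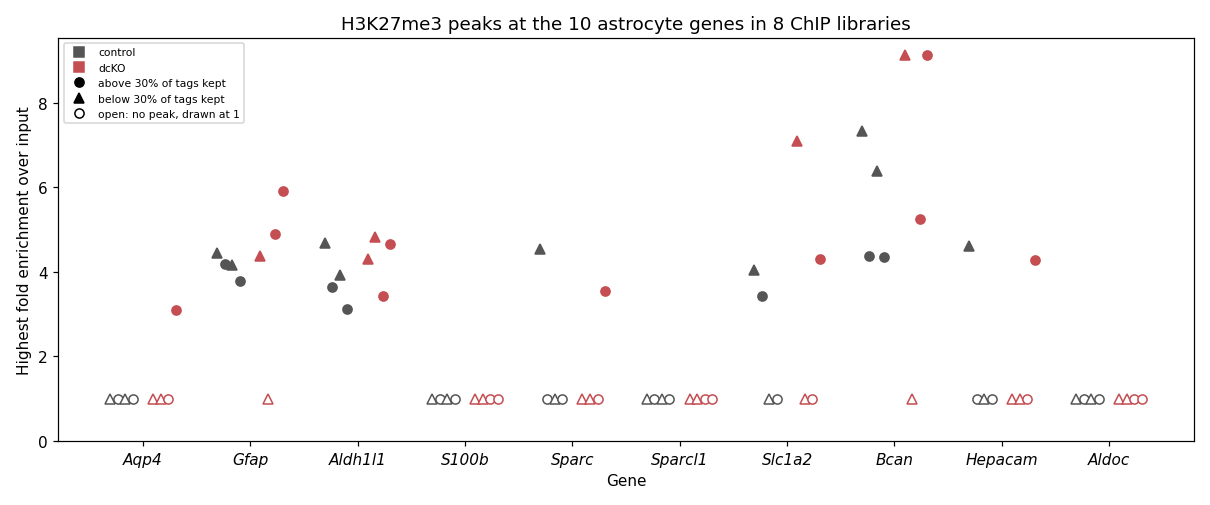
Highest H3K27me3 fold enrichment over input at each of the 10 genes in the 4 control and 4 dcKO ChIP-seq libraries, with libraries without a peak drawn at 1 and triangles for libraries with under 30% of tags kept. Bcan reaches 9.13 and overlaps between the groups, and Aldoc, Sparcl1 and S100b have no peak in any library.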

How the data were processed

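RNA-seq of E17.5 mouse pallium or cortex (19 libraries) and H3K27me3 ChIP-seq (8 libraries) were analysed from processed files. The authors aligned the unstranded RNA reads to mm10 with STAR and deposited raw counts per gene from featureCounts. Broad H3K27me3 peaks were called by the authors library by library (MACS2, q-value limit 0.1), against an input pooled per genotype and with 1 tag kept per position, and the deposited peak tables give the fold enrichment (a ratio over input), the pileup signal and the -log10 q-value. Without strand, sense and antisense reads cannot be told apart.

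From the counts, CPM (TMM-scaled), RPKM over merged exons and fold changes were computed here, with R 4.3.3, edgeR 4.0.16 (filterByExpr, TMM, quasi-likelihood test, Benjamini-Hochberg adjustment over all genes tested, limit 0.05). The 3 treated groups shared 1 fit. DESeq2 1.42.0 and limma 3.58.1 served for alternatives and for the peak regions, and Python 3.11.15 (numpy 2.4.6, pandas 2.3.3) for the rest. Intervals are labelled 95% and cover the spread between libraries. They use the multiplier of the normal distribution, so with so few libraries they are too narrow for that level. The statistics were tested on simulated data. Fold enrichment was tested on the log2 scale, with 1 where a library had no peak, by exact two-sided permutation over 70 regroupings. Peaks that overlapped by at least 1 bp and were found in at least 2 libraries formed a region.

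Total counts per library limit the precision: they ran from 12514443 to 26600594 in WT vehicle, 21516995 to 22953776 in dcKO vehicle, 16060994 to 24635257 with inhibitor, 22509306 to 28391046 in untreated controls and 11946658 to 26066788 in untreated dcKO. Groups came from the sample titles and labels. The 10 genes, the other gene lists and the tests were chosen with earlier results of these data known. Named beside the 10 genes are Smarcc1 and Smarcc2, up to 4 genes of each list with the smallest p, and the 5 genes most like the mean of the 10 among those with at least 5 CPM on average. A gene that this rule names is not reported here. Same-numbered untreated and vehicle libraries were checked for pairing over the 36831 genes in both tables: deviations from the group means correlated above 0.1 in all 7 pairs, so these numbers served as a block for the difference between experiments. A library counted as at the control level where both Smarcc1 and Smarcc2 reached 95% of the lowest control. Alternatives were other size factors, DESeq2, no filter, a replicate block, fits of only 2 groups, each library left out in turn, and for peaks a stricter q-value, another merge distance and pileup in place of fold enrichment. Leaving out the libraries at the control level was added after the data were examined.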

Additional observations from a re-analysis of the deposited data

Results flagged for a closer look

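Of 48 groups of 4 libraries checked with Dixon's test, in which chance alone picks out about 1 in 20 groups, 6 held a library that stood far from the other 3. In dcKO vehicle replicate 2, the library with control levels of Smarcc1 and Smarcc2, Gfap (16.5 CPM), Sparc (141 CPM), Sparcl1 (240.4 CPM), Bcan (66.2 CPM) and Aldoc (126 CPM) all lay above the other dcKO vehicle libraries by more than the critical value. In the ChIP-seq data, the log2 fold enrichment at Gfap was 0 in dcKO replicate 2, which had no peak there, with the other 3 dcKO libraries at 4.36-fold to 5.90-fold.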

How the results depend on the processing

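The counts of genes past the adjusted limit depended strongly on the fit. Untreated, edgeR over all libraries called 1 gene higher and 0 lower. DESeq2 called 257 and 298 (3 of the 10 genes lower: Aqp4, Sparc and Bcan), no filter gave 88 and 66 (1 lower, Sparc), and leaving out the library at control level 892 and 1102 (7 lower, median -0.77). For dcKO vehicle against WT vehicle, 1 and 0 genes became 85 and 35 with DESeq2 (2 lower, Sparcl1 and Aqp4) and 259 and 390 without the libraries at control level (4 lower). With DESeq2's size factors, with no filter and in a fit of only 2 groups 0 genes were higher. For inhibitor against vehicle, 7 and 2 became 174 and 165 with DESeq2, 15 and 5 with no filter, and 392 and 615 without those libraries (1 higher, 1 lower). For inhibitor against WT vehicle, 10 and 6 became 329 and 441 with DESeq2 (1 lower, Sparcl1), 26 and 32 with no filter, and 648 and 1043 without those libraries (2 lower), and 0 genes were lower in a fit of only 2 groups. The cause was not tested.

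With a replicate block, none of the 10 genes passed in any RNA comparison, and their medians were -0.49, -0.61, 0.44 and -0.22. Gene counts under the block were 0 higher and 0 lower untreated, 4 higher and 1 lower for the vehicle comparison, 6 higher and 1 lower for inhibitor against vehicle, and 64 higher and 125 lower for inhibitor against WT vehicle. Same-numbered libraries within an experiment deviated together in few cases, with correlations of -0.18 to 0.40 in the treated experiment (5 of 12 pairs above 0.1) and -0.31 to -0.03 in the untreated one (0 of 3), so these numbers were not taken as pairs.

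Leaving out 1 library at a time gave, untreated, 0 to 892 genes higher, 0 to 1102 lower, 0 to 7 of the 10 lower and a median of -0.77 to -0.38, the high counts being those without dcKO replicate 2. For the vehicle comparison these were 0 to 222, 0 to 340, 0 to 5 and -0.76 to -0.54 (5 without dcKO vehicle replicate 2). For inhibitor against vehicle they were 0 to 143 higher and 0 to 277 lower, with 0 to 1 of the 10 lower (Slc1a2, without inhibitor replicate 2), 0 to 1 higher (Aldoc, without dcKO vehicle replicate 2) and a median of 0.24 to 0.64. For inhibitor against WT vehicle they were 0 to 563, 0 to 890, 0 to 1 lower (without inhibitor replicate 2) and -0.45 to -0.12. The median difference between the experiments ran from -0.10 (without untreated dcKO replicate 2) to 0.25, and 0 to 1 H3K27me3 regions were higher (1 without control replicate 1). In these same fits the H3K27me3 difference ran from -0.59 to 0.47 at Bcan and from -0.58 to 0.28 at Gfap, positive only without dcKO replicate 2. Within 2000 bp of the annotated start alone it was 0.40 at Gfap, from a peak in dcKO replicate 4 only (3.05-fold).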

Other observations

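Markers of other cell types were counted without the libraries at the control level of Smarcc1 and Smarcc2, and a few genes of neurons, vessels and choroid plexus passed the adjusted limit. Of 7 neuron markers, 4 fell in untreated dcKO and 1 in dcKO vehicle, with Neurod6, a factor of cortical projection neurons, at -1.24 (adjusted p 0.000619) and -1.31 (adjusted p 0.00851) on the log2 scale. Of 9 endothelial and pericyte markers, 1 fell in each, the VEGF receptor gene Flt1, at -0.56 (adjusted p 0.00747) and -0.53 (adjusted p 0.0298). Of 5 oligodendrocyte precursor markers, 1 rose in each, Pdgfra, at 0.60 (adjusted p 0.0122) and 0.76 (adjusted p 0.0304). Of 7 microglia markers, C1qb rose in untreated dcKO (0.45, adjusted p 0.0483) and none in dcKO vehicle, and none of 7 meningeal fibroblast markers passed in any of the 4 comparisons, although 7 of 7 were negative in both genotype comparisons and 7 of 7 positive with inhibitor against vehicle. Over all libraries none of the neuron, endothelial, microglia, oligodendrocyte precursor or meningeal markers passed in any of the 4 comparisons.

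With inhibitor against dcKO vehicle, 1 of 6 choroid plexus markers rose, the transcription factor gene Otx2 (1.17, adjusted p 0.0214, against 1.29 with an adjusted p of 0.109 over all libraries), and none of the neuron, endothelial, microglia, oligodendrocyte precursor or meningeal markers passed. Otx2 ranged from 5.17 to 7.89 CPM with inhibitor and from 1.43 to 3.68 CPM in dcKO vehicle, while Ttr, the most abundant choroid plexus transcript, ranged from 4.03 to 803 CPM between the inhibitor libraries. Against WT vehicle, Otx2 passed both over all libraries (1.64, adjusted p 0.0464) and without those at control level (1.71, adjusted p 0.00347), and the vessel genes Kdr (-0.44, adjusted p 0.0225) and Flt1 (-0.42, adjusted p 0.0443) passed in the second setting.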
